A study of Mus musculus with 6 samples.

Results

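Gene expression in mouse cortical cells labelled as corticothalamic projection neurons was compared between postnatal day 6 (P6) and embryonic day 18 (E18), the last and the first of the stages sampled. The comparison used the 2 arrays titled P6 and the 2 arrays titled E18, 4 of the 6 arrays in the series, and took as the change of a probe set its mean log2 level at P6 minus its mean at E18. It covered the 34945 of 45101 probe sets that the platform annotation pairs with exactly 1 gene symbol. These represent 18193 genes. Where a gene had several probe sets, the brightest on average across the 6 arrays stood for it, and 13645 genes remained after the dimmest 25% were left out.

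Corticothalamic neurons were labelled by injecting green fluorescent microspheres, which axon terminals take up and carry back to the cell body, into the thalamus of C57BL/6 mice. Fluorescent cells were then sorted from dissociated cortex, and their RNA was amplified, labelled with biotin and hybridised to Affymetrix arrays. All animals were wild type, and the labels name no transgene or further treatment. E18 embryos were injected at E17.5 and collected at E18.5, and P6 pups were injected at P4 and collected at P6. The interval from injection to collection was thus 1 day at E18 and 2 days at P6, and stage and interval cannot be told apart. The 2 arrays of P3 cells, injected at P1, entered the estimate of spread and the choice of probe set, and their means are set beside those of E18 and P6 at the end. Whether replicate arrays derive from different animals, litters or sorts is not stated in the labels, so the p-values measure the spread between these arrays, which may be technical. In bulk samples of sorted cells, fewer cells of a type and less RNA per cell cannot be told apart.

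Corticothalamic neurons are glutamatergic pyramidal cells, most of them in layer 6, that send descending axons to the thalamus. They arise from radial glia, which express Pax6 and Sox2, partly through Eomes-positive intermediate progenitors, and their identity depends on transcription factors such as Tbr1 and Sox5. In the days around birth their axons arrive at and enter the thalamus, while the cells begin to form synapses and acquire the channels that let them fire.

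The arrays of the stages differed in how closely they matched. The E18 arrays correlated at r = 0.998 over all probe sets and had 0 probe sets more than 2-fold apart, whereas the P6 arrays correlated at r = 0.976 and had 1710. The P6 arrays also differed in the level of the hybridisation controls, 13.0 on replicate 1 and 9.85 on replicate 2, against 9.59 and 9.25 at E18, and in 18S rRNA signal, 13.9 and 11.3, against 11.3 and 11.4 at E18. The difference between 3′ and 5′ probe sets of Actb, a measure of RNA integrity, was 0.56 and 0.58 at E18 and 1.06 and 0.82 at P6, so it moved with stage, and its part in the results was not tested. Because the E18 arrays were so alike, counts for all genes tested and for many lists are also given with their mean treated as 1 sample. The other lists are counted only with the E18 arrays as 2 samples, so how far those counts depend on this is not given.

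The labelled cell type was checked against its markers, which were higher at P6. Averaged over the 30 corticothalamic and layer 6 genes measured, the log2 level was 8.49 and 8.54 on the E18 arrays and 9.83 and 9.94 on the P6 arrays. At E18 the arrays do not by themselves bear out the name: Ntsr1, a marker of layer 6 corticothalamic cells, read 7.32 and 7.41, while the progenitor genes Sox2 and Neurog2 read 12.12 and 12.07 and 11.87 and 11.83 and the mitotic kinase Cdk1 read 13.28 on both arrays. Genes of deep layer neurons were uneven at E18. Crym was about as dim as Ntsr1, while Tle4, Fezf2, Bcl11b and the pyramidal neuron gene Neurod6 were brighter, at levels given below. The E18 arrays thus held genes of neurons together with genes of progenitors, and the E18 group is called by its stage below. Markers of other cells were also present at E18, and the astrocyte and microglia lists were lower at P6. The 15 astrocyte markers averaged 9.13 and 9.15 at E18 against 6.96 and 7.63 at P6. The 14 microglia and macrophage markers averaged 8.26 and 8.27 at E18, 6.64 on P6 replicate 1 and 7.92 on P6 replicate 2, so the P6 arrays differed from each other more than P6 replicate 2 differed from E18. Lists for endothelial cells and pericytes, interneurons, oligodendrocytes, meninges, thalamus, Cajal-Retzius cells and red blood cells had mean levels below 7 on every array. These means include genes below the filter, and some single members were brighter. At E18 Zic1 (thalamus list) read 9.16 and 9.08, Dlx1 (interneurons) 8.76 and 8.78 and Fn1 (meninges) 9.62 and 9.69. Hba-a2 (red blood cells) read 6.37 and 6.31. The means do not show that such cells were absent.

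**Figure D1:**
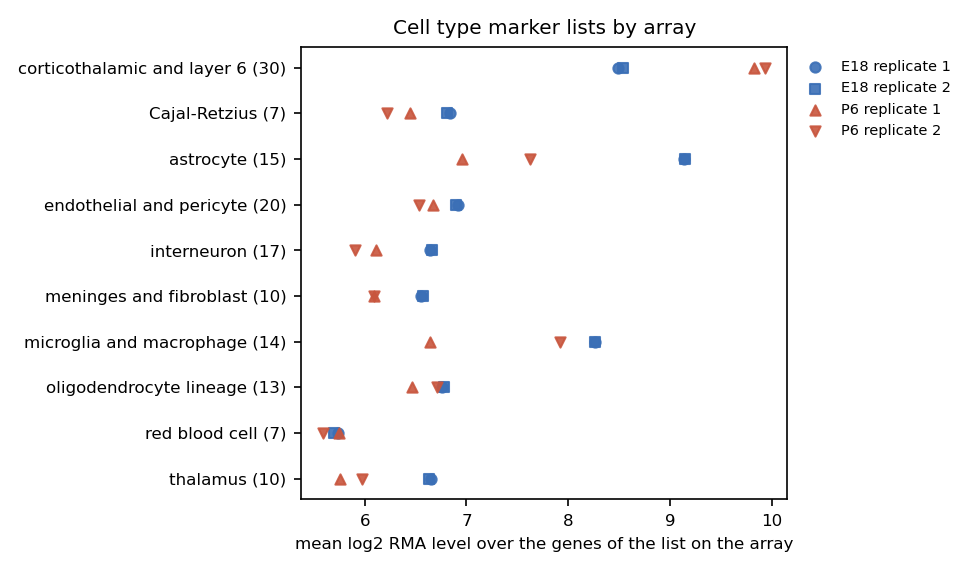
Mean log2 RMA level of each cell type marker list (vertical axis, number of genes measured in parentheses) on the 2 E18 arrays (blue) and the 2 P6 arrays (orange). The corticothalamic list sits near 8.5 at E18 and between 9.83 and 9.94 at P6, the astrocyte list is lower on both P6 arrays, and the microglia list is 7.92 on P6 replicate 2 and 6.64 on P6 replicate 1.

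Across the genome, P6 cells differed from E18 cells in 4320 of the 13645 genes tested (limma, Benjamini-Hochberg adjusted p below 0.05), or 31.7%. Of these genes 2015 rose, 14.8% of those tested, and 2305 fell, 16.9%. Falls were the larger changes at the extreme. More than 8-fold rises numbered 130 and falls 321, and more than 32-fold changes numbered 1 rise, in Rprml, and 48 falls. The median rise among called genes was 1.43 on the log2 scale and the median fall was -1.55, while the median change of all genes tested was 0.08. The P6 and E18 arrays did not overlap in any called gene, and they did not overlap in 80.8% of all genes tested, so non-overlap by itself says little here. With the E18 arrays averaged, 2366 genes were called, 1016 rising and 1350 falling. The 61 lists described next hold 1653 genes, of which 138 had no probe set with 1 symbol, 113 were below the filter and 1402 were tested; 436 rose, 331 fell and 635 were not called.

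The 12 largest rises were led by Rprml, Ccn3 and Gng4. Rprml read 5.35 and 5.39 at E18 and 9.89 and 10.99 at P6. The gene encodes a small relative of the cell cycle arrest protein Reprimo and rose by 5.07 (SE 0.37, limma adjusted p = 8.79e-05), a 33.7-fold difference. Ccn3, a secreted matricellular protein, read 5.82 and 5.92 at E18 and 10.60 and 11.06 at P6 and rose by 4.96 (SE 0.25, limma adjusted p = 1.96e-05). Gng4, a G protein gamma subunit, read 7.27 and 7.32 at E18 and 12.05 and 12.24 at P6 and rose by 4.85 (SE 0.24, limma adjusted p = 1.92e-05). In each of these genes both P6 arrays lay far above both E18 arrays, which follows from how the largest rises were chosen.

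The other 9 of the 12 largest rises ranged from 4.34 to 4.79. They were Myo5b, a myosin motor of vesicle recycling, Nptx1, a neuronal pentraxin that clusters AMPA receptors, Thy1, a surface glycoprotein of mature axons, Syndig1l, a relative of an AMPA receptor partner, and Ramp3, a partner of the calcitonin receptor family. The remainder were Cck, the neuropeptide cholecystokinin, Vsnl1, a calcium sensor, Grm3, a metabotropic glutamate receptor, and Galnt9, which begins O-linked sugar chains. For Ramp3 the P6 arrays were 10.63 and 11.89, the widest gap of the 12. All 12 were higher at P6 than at P3 in mean level, by 0.13 to 1.77, an order that choosing genes by their rise at P6 favours. No gene passed the test between P6 and P3 (0 of 13645 called by limma, 2696 at unadjusted p below 0.05).

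The largest falls were genes of neural progenitors and of cell division. Neurog2, the proneural factor that commits cortical progenitors to a glutamatergic fate, read 11.87 and 11.83 at E18 and 5.03 and 4.73 at P6, and it fell by 6.97 (SE 0.32, limma adjusted p = 1.49e-05). Celsr1, a planar polarity cadherin of the neuroepithelium, read 10.92 and 10.99 at E18 and 3.99 and 4.46 at P6 and fell by 6.73 (SE 0.20, limma adjusted p = 7.7e-06). Sox2, which maintains progenitors, read 12.12 and 12.07 at E18 and 4.66 and 6.32 at P6, with the P6 arrays 1.66 apart and both far below E18, and it fell by 6.61 (SE 0.48, limma adjusted p = 8.08e-05). Top2a, Cdk1, Nuf2, Nusap1, Pbk, Sox3, Eomes, Cep55 and Cenpa completed the 12, with changes from -6.52 to -6.02, equal to 64.9-fold to 91.5-fold. Their P6 levels, between 4.60 and 7.12, were mostly near or below 5.97, the lowest mean that passed the filter, so the folds rest on signal near the dim end of the array.

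**Figure D2:**
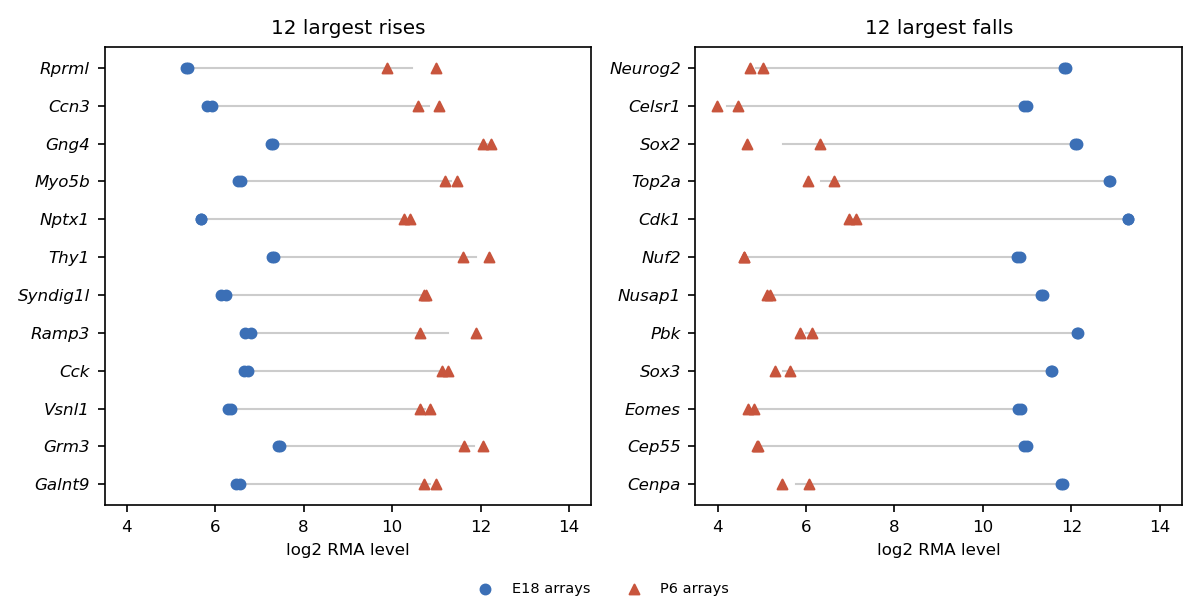
Log2 RMA levels (horizontal axes) of the 12 genes with the largest rises (left) and the 12 with the largest falls (right) on the 2 E18 arrays (blue circles) and 2 P6 arrays (orange triangles), with a grey line joining the stage means. E18 points nearly coincide for every gene, and the P6 points spread most for Ramp3 on the left and Sox2 on the right.

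Cell division genes had the lowest median change of the lists examined. Of 56 mitosis genes, 1 had no probe set, 1 was below the filter and 54 were tested; 49 fell, 1 rose and 4 were not called, and the median change was -4.69 against 0.08 for all genes tested. With the E18 arrays averaged, 47 fell. Regulators of mitotic entry and exit (the anaphase-promoting complex, Cdc25 phosphatases and securin) fell in 5 of 6, kinases and cyclins in 11 of 12, and spindle, kinetochore and condensin genes in 33 of 36.

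Among the kinases, Cdk1, the kinase that drives entry into mitosis, read 13.28 and 13.28 at E18 and 6.97 and 7.12 at P6 and fell by 6.23 (SE 0.23, limma adjusted p = 8.77e-06). Pbk, a mitotic kinase, read 12.14 and 12.13 at E18 and 5.87 and 6.15 at P6 and fell by 6.13 (SE 0.22, limma adjusted p = 8.05e-06). Among structural proteins, Nuf2, a kinetochore subunit that attaches microtubules, read 10.77 and 10.83 at E18 and 4.61 and 4.60 at P6 and fell by 6.20 (SE 0.17, limma adjusted p = 7.7e-06). Nusap1, which bundles spindle microtubules, fell by 6.19 (SE 0.20), and Kif20a, the kinesin of cytokinesis, fell by 5.20 (SE 0.17). In all 5 genes the gap between stages was many times the gap between the arrays of a stage. Choosing genes by size of change or smallest p favours this.

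The 5 members that did not fall were Nek2, Kif2c, Kif15, Tpx2 and Fzr1, and for 3 of them other probe sets gave a different reading. Nek2, a centrosome kinase, was called as a rise of 1.03 from the probe set with the highest mean, while another probe set of the gene read 9.53 and 9.68 at E18 and 5.33 and 4.83 at P6, a change of -4.53. Tpx2, a spindle assembly factor, changed by 0.34 on the probe set used and by -5.0 and -4.51 on a pair of others. Kif2c, a microtubule-depolymerising kinesin, changed by -0.56 on the probe set used and by -5.53 on another. In these genes the rule of taking the brightest probe set on average, with 2 embryonic arrays among 6, passed over probe sets that were bright at E18 alone. Kif15 had 1 probe set, at 0.46, and Fzr1, an activator of the anaphase-promoting complex, had 1 at -0.63.

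Many mitotic promoters carry a cell cycle genes homology region (CHR), bound by MuvB complexes, beside CCAAT boxes bound by NF-Y. The start sites of the mitosis genes that fell were searched for both. A high share is foreseen from membership of the list and does not bear on the change from E18 to P6. RefSeq promoter windows on GRCm38.p6, from 250 bases before to 50 after the annotated start, were matched by symbol for 40 of the 49 mitosis genes that fell and gave 44 windows. The CHR was searched as TTTGAA or TTTCGAA and the CCAAT box as CCAAT, on both strands, with overlapping matches counted. Both elements occurred in 30 of the 44 windows, or 68.2%, from 28 genes, against 7.23% of all 32851 windows in the table and 4.99% of the windows of genes tested. The windows of all genes that fell held both in 8.04% and those of all genes that rose in 3.57%. The windows of Nuf2 and Nusap1 do not hold both elements. Below are the 4 genes with the largest falls among the 28, chosen after their values and motifs were seen. Windows on a chromosome left out of the display were passed over. Each window is written 5′ to 3′ on the strand of the gene, with CHR and CCAAT matches of either strand in capitals.
Top2a, chr11:99024140-99024439, minus strand: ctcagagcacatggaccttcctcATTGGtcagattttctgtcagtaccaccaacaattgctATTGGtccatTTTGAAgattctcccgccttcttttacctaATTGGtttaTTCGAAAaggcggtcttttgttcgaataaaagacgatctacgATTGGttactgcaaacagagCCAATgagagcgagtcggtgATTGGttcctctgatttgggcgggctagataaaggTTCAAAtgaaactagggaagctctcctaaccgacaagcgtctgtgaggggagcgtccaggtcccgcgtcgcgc
Cdk1, chr10:69352863-69353162, minus strand: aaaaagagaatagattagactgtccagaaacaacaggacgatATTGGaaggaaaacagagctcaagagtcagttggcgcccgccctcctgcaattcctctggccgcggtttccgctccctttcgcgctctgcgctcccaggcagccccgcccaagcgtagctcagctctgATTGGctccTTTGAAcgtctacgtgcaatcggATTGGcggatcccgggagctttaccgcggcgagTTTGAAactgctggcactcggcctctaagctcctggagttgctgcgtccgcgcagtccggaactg
Cenpa, chr5:30666636-30666935, plus strand: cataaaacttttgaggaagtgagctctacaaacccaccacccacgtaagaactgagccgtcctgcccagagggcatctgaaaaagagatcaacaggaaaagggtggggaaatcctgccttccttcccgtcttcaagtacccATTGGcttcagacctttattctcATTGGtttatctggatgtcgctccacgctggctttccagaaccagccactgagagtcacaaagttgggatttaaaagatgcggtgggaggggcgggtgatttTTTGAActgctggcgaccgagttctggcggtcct
Ccnb2, chr9:70421505-70421804, minus strand: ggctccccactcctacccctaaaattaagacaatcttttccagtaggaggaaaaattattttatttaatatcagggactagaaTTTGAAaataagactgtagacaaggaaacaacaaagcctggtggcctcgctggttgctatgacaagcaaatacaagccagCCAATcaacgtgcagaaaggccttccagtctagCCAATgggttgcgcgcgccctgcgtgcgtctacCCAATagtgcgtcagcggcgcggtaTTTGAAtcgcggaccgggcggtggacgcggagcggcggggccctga
The Top2a window holds 9 matches, those of Cdk1 and Ccnb2 hold 5 each, and that of Cenpa holds 3. Top2a encodes the topoisomerase that untangles sister chromatids, Cenpa the centromeric histone H3 and Ccnb2 a B-type cyclin, and the 4 genes changed by -6.52, -6.23, -6.02 and -5.91. A match describes the letters of the window and does not show that a factor binds there.

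DNA replication genes fell nearly as a whole, by less. Of 40 genes, 2 had no probe set, 2 were below the filter and 36 were tested; 34 fell, 0 rose and 2 were not called, with a median change of -2.37. With the E18 arrays averaged 27 fell. The licensing and helicase genes fell in 14 of 16 and the polymerase, clamp and nucleotide supply genes in 20 of 20. Gmnn, the inhibitor of relicensing, read 10.03 and 10.06 at E18 and 6.00 and 5.97 at P6 and fell by 4.06 (SE 0.19, limma adjusted p = 1.51e-05). Tk1, thymidine kinase, read 10.66 and 10.64 at E18 and 5.75 and 6.20 at P6 and fell by 4.68 (SE 0.22, limma adjusted p = 1.63e-05). Mcm3, a helicase subunit, fell by 3.99 (SE 0.21, limma adjusted p = 2.22e-05), and Uhrf1, which copies DNA methylation at the fork, fell by 3.22 (SE 0.18, limma adjusted p = 2.73e-05). In all 4 genes both P6 arrays were far below both E18 arrays, and the arrays of the stages are apart in every called gene. The exceptions, Orc1 at -0.0013 and Orc6 at -0.26, are subunits of the origin recognition complex.

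E2F factors act at many replication promoters, so here too a high share is foreseen from membership of the list. An E2F element, searched as TTTCCCGC or TTTGGCGC on both strands, occurred in 8 of 33 windows of replication genes that fell, or 24.2%, against 1.56% of all windows and 2.6% of those of genes tested. It occurred in 4.55% of the windows of mitosis genes that fell, and the CHR and CCAAT pair occurred in 9.09% of the replication windows. The 2 genes with the largest falls among the 8, with the same chromosome passed over, are given with E2F matches in capitals. They were chosen after their values and motifs were seen.
Mcm3, chr1:20820263-20820562, minus strand: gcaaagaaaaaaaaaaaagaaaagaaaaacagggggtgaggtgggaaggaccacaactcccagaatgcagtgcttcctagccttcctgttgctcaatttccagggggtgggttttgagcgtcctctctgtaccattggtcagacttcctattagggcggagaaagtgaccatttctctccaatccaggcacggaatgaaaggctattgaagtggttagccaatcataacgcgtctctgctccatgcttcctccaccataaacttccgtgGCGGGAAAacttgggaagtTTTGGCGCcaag
Pold1, chr7:44548766-44549065, minus strand: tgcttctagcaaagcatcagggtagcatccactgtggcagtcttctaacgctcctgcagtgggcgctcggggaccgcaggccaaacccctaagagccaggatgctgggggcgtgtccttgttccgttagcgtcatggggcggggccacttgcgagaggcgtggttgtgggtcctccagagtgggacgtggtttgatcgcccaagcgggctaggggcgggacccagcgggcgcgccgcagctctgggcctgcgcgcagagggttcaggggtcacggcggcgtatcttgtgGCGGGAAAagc
In Mcm3 both forms lie after the annotated start, and Pold1, the catalytic subunit of DNA polymerase delta, has 1 match. Pold1 fell by 3.55.

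Regulators of the decision to leave the cell cycle fell less uniformly. Of 25 genes 23 were tested, and 16 fell, 2 rose and 5 were not called, with a median of -1.25. Cyclins, kinases and E2F factors fell in 11 of 13 and inhibitors and pocket proteins in 5 of 10. Rbl1, the pocket protein p107, read 10.12 and 10.28 at E18 and 4.70 and 4.86 at P6 and fell by 5.42 (SE 0.17, limma adjusted p = 7.7e-06), the deepest fall of the list. Cdk6, the partner of D cyclins, fell by 3.75 (SE 0.28, limma adjusted p = 9.64e-05), while the inhibitor of Cdk4 and Cdk6, Cdkn2c, also fell by 3.77 (SE 0.25, limma adjusted p = 5.65e-05). The 2 that rose were Cdkn1a, the inhibitor p21, by 2.27, and Myc, by 1.32.

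Genes of radial glia also fell nearly throughout. Of 38, 1 had no probe set and 1 was below the filter; of 36 tested 33 fell, 0 rose and 3 were not called, with a median of -4.08, and 33 also fell with the E18 arrays averaged. Transcription factors fell in 15 of 16 and structural or signalling proteins in 18 of 20. Nr2e1, the orphan receptor Tlx that keeps neural stem cells proliferating, read 10.10 and 10.18 at E18 and 4.17 and 4.42 at P6 and fell by 5.84 (SE 0.20, limma adjusted p = 8.05e-06). Prom1, an apical membrane protein of progenitors, read 10.69 and 10.74 at E18 and 5.18 and 5.58 at P6 and fell by 5.33 (SE 0.21, limma adjusted p = 1.07e-05). Sox3, a close relative of Sox2, fell by 6.08 (SE 0.21, limma adjusted p = 7.7e-06). The astrocyte markers, several of which radial glia also express, moved with this list: 9 of 14 tested fell, 1 rose and 4 were not called, with a median of -2.34. Their part in the fall of the radial glia list was not tested.

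Pax6 was among the 3 radial glia genes not called, and its probe sets disagreed. The probe set used read 5.92 and 5.79 at E18 and 6.80 and 6.35 at P6, a change of 0.72, while another read 9.83 and 9.72 at E18 and 4.28 and 4.53 at P6, a change of -5.37. The remaining 3 probe sets changed by -2.39, -0.36 and -0.20. Nes, the progenitor intermediate filament nestin, changed by -0.52 on the probe set used and by -1.64 on another, and Ddah1, an enzyme of methylarginine breakdown, changed by -1.0.

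Genes of the cascade from progenitor to newborn neuron had more falls than rises. Of 21 genes 19 were tested, and 10 fell, 1 rose and 8 were not called, with a median of -0.97. After Neurog2, the deepest falls were in Eomes, the marker of intermediate progenitors, which read 10.80 and 10.86 at E18 and 4.83 and 4.69 at P6 and fell by 6.07 (SE 0.20, limma adjusted p = 7.7e-06), and in Insm1, which promotes their formation and fell by 4.49 (SE 0.23, limma adjusted p = 2.26e-05). Btg2, an antiproliferative gene of dividing neurogenic cells, fell by 2.37 (SE 0.21, limma adjusted p = 0.000174). The 1 that rose was Neurod6, a factor of postmitotic pyramidal neurons, which read 10.56 and 10.59 at E18 and 11.45 and 11.49 at P6, a rise of 0.89. Its relative Neurod2 changed by 0.85 and was not called.

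**Figure D3:**
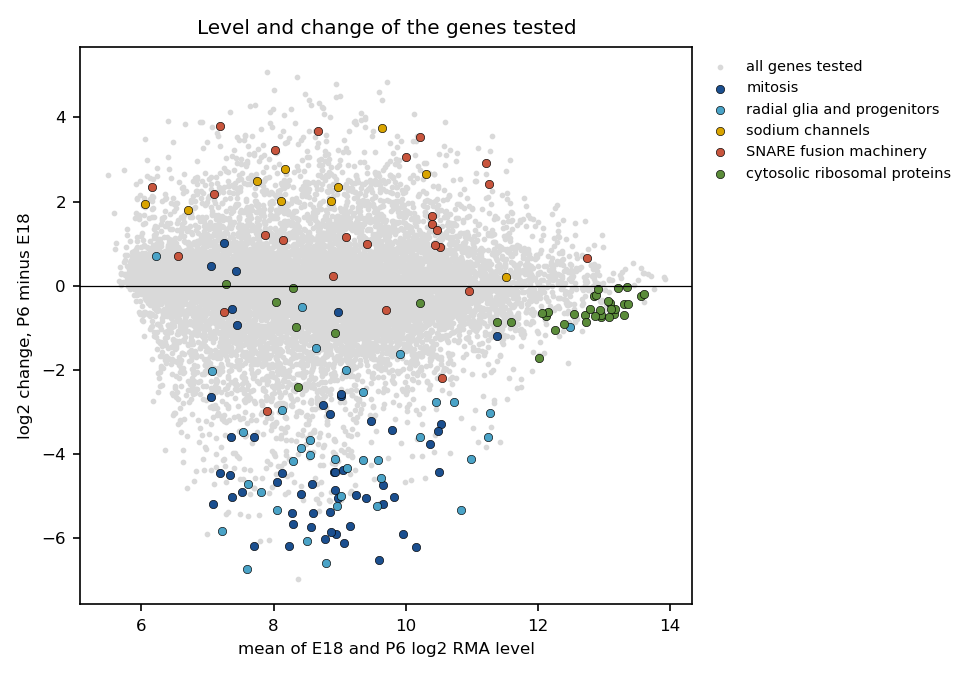
Change from E18 to P6 on the log2 scale (vertical axis) against the mean log2 RMA level of the stages (horizontal axis) for the 13645 genes tested (grey), with 5 lists coloured. Mitosis and radial glia genes lie mostly between -2 and -7, sodium channel and SNARE genes mostly above 0, and ribosomal protein genes at the bright end just below 0.

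Signalling pathways of the germinal zone had more falls than rises. Of 32 BMP, TGF-beta and hedgehog genes, all tested, 18 fell, 3 rose and 11 were not called (median -1.22); with the E18 arrays averaged 15 fell and 0 rose, and with the hybridisation controls as a covariate 9 fell and 0 rose. Gli2, a transcription factor that carries the hedgehog signal, read 11.60 and 11.65 at E18 and 6.62 and 6.85 at P6 and fell by 4.89 (SE 0.23, limma adjusted p = 1.63e-05), and Cdon, a hedgehog co-receptor, fell by 4.05 (SE 0.25, limma adjusted p = 3.93e-05). Tgfb2, a TGF-beta ligand, and Bmpr1b, a BMP receptor, changed by -2.89 and -1.97. Of 31 Wnt genes 28 were tested, and 11 fell, 2 rose and 15 were not called, with a median of -0.09. The Frizzled receptors Fzd2, Fzd7 and Fzd1 changed by -4.74, -3.92 and -3.37, and Sfrp1, a secreted inhibitor that binds Wnt, read 12.39 and 12.40 at E18 and 7.97 and 7.59 at P6 and fell by 4.62 (SE 0.27, limma adjusted p = 3.29e-05).

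Chromatin genes fell in a share that varied by list. Of 28 histone and chromosome architecture genes 23 were tested, and 14 fell, 1 rose and 8 were not called (median -1.07, with 9 falling and 0 rising when the E18 arrays were averaged). Hmgb2, a chromatin protein of dividing cells, read 11.24 and 11.32 at E18 and 6.27 and 5.94 at P6 and fell by 5.17 (SE 0.22, limma adjusted p = 1.28e-05). Tmpo, a lamina-associated protein, and H2az2, a histone variant, changed by -4.57 and -3.36, whereas Lmna, the A-type lamin of differentiated cells, rose by 0.63. Of 28 DNA methylation and Polycomb genes 24 were tested, and 8 fell, 0 rose and 16 were not called (median -0.41, with 5 falling when the E18 arrays were averaged); Ezh2 and Suz12, core subunits of Polycomb repressive complex 2, changed by -2.89 and -2.17. Of 24 BAF remodelling genes, 4 rose, 3 fell and 17 were not called, with 1 rising and 2 falling when the E18 arrays were averaged. The shares called in the Polycomb and BAF lists were near the 31.7% called among all genes tested. The calls in the Polycomb list were all falls, whereas 16.9% of all genes tested fell.

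Corticothalamic identity genes rose over the same span. Of 32 listed, 2 had no probe set and 30 were tested, and 19 rose, 2 fell and 9 were not called, with a median of 1.49 against 0.08 for all genes tested. With the E18 arrays averaged 15 rose and 2 fell. Transcription factors rose in 6 of 11 and effector or surface genes in 13 of 19.

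Tbr1, the factor that specifies corticothalamic identity and represses subcerebral fate, read 8.06 and 8.24 at E18 and 10.23 and 9.88 at P6 and rose by 1.91 (SE 0.35, limma adjusted p = 0.00535). Both P6 arrays were above both E18 arrays, but the call was lost with the hybridisation controls as a covariate (limma adjusted p = 0.0854) and without P6 replicate 1. Tle4, a corepressor kept in these neurons, read 9.76 and 9.85 at E18 and 12.41 and 12.16 at P6 and rose by 2.49 (SE 0.24, limma adjusted p = 0.000299), and Foxp2, a forkhead factor of layer 6, rose by 2.07 (SE 0.29, limma adjusted p = 0.00152). Zfpm2, a cofactor also called Fog2, rose by 1.82 (SE 0.31, limma adjusted p = 0.00416), and Sox5, which controls the sequence in which deep layer neuron types are made, rose by 1.55 (SE 0.31, limma adjusted p = 0.00734) and was above its E18 level on 7 of 7 probe sets; its call was lost under the same 2 alternatives (limma adjusted p = 0.0913 under the covariate). Fezf2, the determinant of subcerebral fate, read 10.24 and 10.37 at E18 and 10.05 and 10.94 at P6 and was not called, with a change of 0.19, and its P6 replicate 1 lay below both E18 arrays. Bcl11b, which directs subcerebral axons and is also called Ctip2, read 10.70 and 10.75 at E18 and 12.01 and 11.89 at P6; its change of 1.22 missed the threshold (limma adjusted p = 0.0522) and passed it in 9 of 18 alternatives. Lhx2, a factor of progenitors and of upper layers, read 11.57 and 11.59 at E18 and 6.23 and 6.43 at P6 and fell by 5.25 (SE 0.26, limma adjusted p = 1.92e-05).

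Effector genes of the subtype included the largest rise of the list. Crym, a thyroid hormone binding protein, read 7.33 and 7.35 at E18 and 11.18 and 11.40 at P6 and rose by 3.95 (SE 0.36, limma adjusted p = 0.000236). Ntsr1, the neurotensin receptor whose promoter is widely used to mark layer 6 corticothalamic cells, read 7.32 and 7.41 at E18 and 10.89 and 10.27 at P6 and rose by 3.21 (SE 0.36, limma adjusted p = 0.00054). Garnl3, Hs3st4 and Igsf21 changed by 3.76, 3.56 and 3.27; Hs3st4 modifies heparan sulfate, and Igsf21 is a synaptic adhesion protein. In all 5 genes both P6 arrays were above both E18 arrays, which holds for every called gene that rose. Syt6, a synaptotagmin of these cells, rose by 1.53 (SE 0.40, limma adjusted p = 0.0235) and was called in 8 of 16 alternatives. Ccn2, a matricellular protein that marks the subplate, went the other way, reading 10.12 and 10.15 at E18 and 7.80 and 8.05 at P6, and it fell by 2.21 (SE 0.36, limma adjusted p = 0.00307), a call lost with the hybridisation controls as a covariate (limma adjusted p = 0.0589).

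Genes of neighbouring subtypes moved in both directions. Among 20 subcerebral and layer 5 genes 18 were tested, and 9 rose, 1 fell and 8 were not called (median 0.89). S100a10, Nfe2l3, Npr3 and Pcp4 changed by 2.98, 2.71, 2.68 and 2.25, and Tafa2 fell by 1.52. Among 25 callosal and upper layer genes 22 were tested, and 4 rose, 7 fell and 11 were not called (median 0.15). Ptn, a secreted growth factor also made by radial glia, read 12.41 and 12.42 at E18 and 8.09 and 8.81 at P6 and fell by 3.97 (SE 0.34, limma adjusted p = 0.00017), and Pou3f3, also called Brn1, fell by 2.19 (SE 0.28, limma adjusted p = 0.00105). Lpl and Rasgrf2 changed by 2.52 and 2.27. All of these genes were called, and as in every called gene the arrays of the stages did not overlap (80.8% of all genes tested).

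Genes of transmitter release rose in most cases. Of 30 SNARE fusion genes 26 were tested, and 20 rose, 2 fell and 4 were not called, with a median of 1.18; 10 rose with the E18 arrays averaged. Snap25, a SNARE of the plasma membrane, read 8.38 and 8.53 at E18 and 12.09 and 11.88 at P6 and rose by 3.53 (SE 0.23, limma adjusted p = 4.94e-05). Stx1a, its syntaxin partner, read 9.76 and 9.77 at E18 and 12.65 and 12.70 at P6 and rose by 2.91 (SE 0.20, limma adjusted p = 6.9e-05), and the calcium sensor Doc2a and the priming factor Unc13a changed by 3.68 and 2.35. The 2 that fell were Vamp3, the vesicle SNARE of general membrane recycling, and Stxbp6, by 2.98. Of 14 synaptotagmins 13 were tested, and 9 rose, 0 fell and 4 were not called (median 1.53). Averaging the E18 arrays gave 6 rises. Syt1, the calcium sensor of fast release, read 9.11 and 9.22 at E18 and 12.15 and 11.92 at P6 and rose by 2.87 (SE 0.23, limma adjusted p = 0.000139), and Syt13, Syt7 and Syt3 changed by 3.42, 2.58 and 2.14.

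Synaptic vesicle proteins included both directions. Of 28, 24 were tested, and 13 rose, 5 fell and 6 were not called (median 1.13); with the E18 arrays averaged 9 rose and 3 fell, and with the hybridisation controls as a covariate 13 rose and 1 fell. Sv2b and Sv2a, vesicle glycoproteins, read 6.75 and 6.97 at E18 and 10.71 and 10.07 at P6 for the former and 9.44 and 9.45 at E18 and 11.55 and 11.90 at P6 for the latter, and changed by 3.53 and 2.28. The 5 that fell were Slc32a1, the vesicular transporter of inhibitory cells, Slc17a6, Sypl, Syngr2 and Synpr. Slc32a1 was higher at P6 on 3 of its 4 probe sets. Its fall was not called with the mean of all probe sets (limma adjusted p = 0.135). Of 18 active zone genes, all tested, 13 rose, 2 fell and 3 were not called (median 1.41), and 7 rose with the E18 arrays averaged. Rims1, Pclo, Rimbp2 and Erc2, scaffolds that hold vesicles near calcium channels, changed by 2.51, 2.47, 2.37 and 1.99. Of 24 endocytosis genes 23 were tested, and 13 rose, 0 fell and 10 were not called (median 0.87, with 8 rising with the hybridisation controls as a covariate), among them Dnajc6, the uncoating cofactor auxilin, reading 7.38 and 7.29 at E18 and 11.01 and 10.58 at P6 and Sh3gl2, endophilin, reading 9.24 and 9.16 at E18 and 12.18 and 12.54 at P6.

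Synaptic organizers act on both sides of the cleft. Of 36 such genes 31 were tested, and 19 rose, 0 fell and 12 were not called (median 1.26). Postsynaptic partners rose in 13 of 18 and presynaptic partners in 6 of 13. Averaging the E18 arrays gave 13 rises in the whole list. Lgi1, a secreted protein that links synapses across the cleft, read 6.07 and 6.20 at E18 and 10.07 and 10.33 at P6 and rose by 4.07 (SE 0.26, limma adjusted p = 4.63e-05), and Lgi2 and Lrrtm4 changed by 3.20 and 2.42. Of 42 postsynaptic density genes 35 were tested, and 19 rose, 2 fell and 14 were not called (median 1.11, with 10 rising when the E18 arrays were averaged). Camk4, a nuclear calcium kinase, read 7.29 and 7.25 at E18 and 11.28 and 11.46 at P6 and rose by 4.10 (SE 0.23, limma adjusted p = 2.86e-05) on 5 of 5 probe sets. Prkcb, Nrgn and Prkce changed by 3.24, 2.23 and 2.18. The 2 that fell were Homer3 and Camk2d, by 1.19 and 0.90.

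Glutamate receptor genes rose across classes. Of 34 ionotropic receptor genes 30 were tested, and 22 rose, 1 fell and 7 were not called, with a median of 0.93; 9 rose with the E18 arrays averaged. By role, 3 of 4 AMPA subunits, 5 of 5 NMDA subunits, 3 of 5 kainate or delta subunits and 11 of 16 auxiliary subunits rose. In the same order, 1, 2, 2 and 4 rose with the E18 arrays averaged, so most rises in each class but the kainate or delta subunits were not kept. Grin3a, an NMDA subunit that limits calcium entry in young synapses, read 6.92 and 6.65 at E18 and 10.22 and 10.71 at P6 and rose by 3.68 (SE 0.32, limma adjusted p = 0.000187). Grik3, a kainate subunit, and Neto1, an auxiliary subunit, changed by 2.86 and 2.43. The gene that fell was Cacng5, an AMPA receptor auxiliary subunit, by 1.65. All 6 metabotropic receptors tested of 7 listed rose (median 2.0), and 4 of 6 did so with the E18 arrays averaged; Grm3 read 7.46 and 7.42 at E18 and 12.06 and 11.63 at P6, Grm7 5.66 and 5.89 at E18 and 9.08 and 9.66 at P6 and Grm5 8.17 and 8.20 at E18 and 10.02 and 10.70 at P6.

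Inhibitory receptor genes rose in part. Of 22 GABA receptor and chloride transport genes 7 had no probe set and 15 were tested. Among these 9 rose, 1 fell and 5 were not called (median 0.82). Averaging the E18 arrays gave 6 rises and 0 falls. Slc12a5, the chloride extruder KCC2 that makes GABA inhibitory, read 8.14 and 8.30 at E18 and 11.71 and 11.59 at P6 and rose by 3.43 (SE 0.30, limma adjusted p = 0.000189). Its counterpart Slc12a2, the importer NKCC1, changed by -0.74 and was not called. Gabrb2, Gabra5 and Gabra3 changed by 2.86, 2.86 and 1.88, and Gabra4 fell by 1.24.

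Voltage-gated channel genes rose, and the sodium channels had the highest median of the lists examined. Of 14 sodium channel genes 10 were tested, and 9 rose, 0 fell and 1 was not called, with a median of 2.19; 9 rose with the E18 arrays averaged. Scn2a, the main alpha subunit of young pyramidal axons, read 7.72 and 7.79 at E18 and 11.62 and 11.42 at P6 and rose by 3.76 (SE 0.24, limma adjusted p = 5.12e-05). Scn3a, an alpha subunit of immature neurons, read 6.73 and 6.84 at E18 and 9.86 and 9.26 at P6 and rose by 2.77 (SE 0.27, limma adjusted p = 0.000302). Scn3b and Fgf12, an auxiliary subunit and a channel-binding factor, changed by 2.66 and 2.36. Of 16 calcium channel genes 13 were tested, and 12 rose and 1 was not called (median 1.45); 7 rose with the E18 arrays averaged and 5 with the hybridisation controls as a covariate. Cacna1g, the T-type channel of burst firing, read 7.42 and 7.46 at E18 and 10.20 and 9.86 at P6 and rose by 2.59 (SE 0.27, limma adjusted p = 0.000412), and Cacna1d, Cacna1e and Cacna1b changed by 2.45, 2.14 and 2.14.

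Potassium and HCN channels formed the largest channel list. Of 57 genes 7 had no probe set, 3 were below the filter and 47 were tested, and 28 rose, 2 fell and 17 were not called (median 1.56); 27 rose with the E18 arrays averaged. Kcnf1, a silent voltage-gated subunit, read 5.20 and 5.38 at E18 and 8.62 and 8.80 at P6 and rose by 3.42 (SE 0.21, limma adjusted p = 4.24e-05). Dpp10, an auxiliary subunit of A-type channels, and Kcnc4, a voltage-gated subunit of the Shaw family, changed by 3.36 and 3.07. The 2 that fell were Kcnj10, the inward rectifier of glia, which read 10.02 and 10.04 at E18 and 6.23 and 6.47 at P6, and Kcnip1, by 2.21.

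Calcium handling and second messengers rose alongside. Of 24 calcium pump and release genes 18 were tested, and 11 rose and 0 fell (median 1.70). Ryr2, a calcium release channel of the endoplasmic reticulum, read 4.75 and 5.13 at E18 and 9.06 and 8.60 at P6 and rose by 3.89 (SE 0.25, limma adjusted p = 4.74e-05), and Slc24a2, Atp2b3 and Slc8a3, which extrude calcium, changed by 3.78, 3.15 and 2.86. Of 22 calcium sensors and buffers 17 were tested, and 10 rose and 0 fell (median 0.87), with Necab1 and Hpca changing by 4.20 and 3.57. Of 54 G protein, cyclase and RGS genes 52 were tested, and 31 rose, 6 fell and 15 were not called (median 1.16). Averaging the E18 arrays gave 21 rises and 4 falls. Adcy1, a calcium-stimulated adenylyl cyclase, read 9.65 and 9.70 at E18 and 12.84 and 12.90 at P6 and rose by 3.20 (SE 0.22, limma adjusted p = 6.17e-05); Adcy8, of the same class, and Pde2a, which breaks down cyclic nucleotides, changed by 2.75 and 2.99.

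Monoamine, acetylcholine and peptide signalling genes numbered 68, of which 8 had no probe set and 12 were below the filter. Of 48 tested 26 rose, 3 fell and 19 were not called, with a median of 0.99; with the E18 arrays averaged 16 rose and 3 fell. Receptors rose in 15 of 26, with 0 falling, and in 8 of 26 with the E18 arrays averaged. Chgb, a secretory granule protein, read 8.62 and 8.68 at E18 and 12.95 and 12.12 at P6 and rose by 3.89 (SE 0.30, limma adjusted p = 9.84e-05). The 3 that fell were peptides or trophic factors: Tac1, the substance P precursor, read 8.97 and 9.24 at E18 and 5.98 and 5.95 at P6, Nrn1, neuritin, read 10.73 and 10.84 at E18 and 7.40 and 7.83 at P6, and Nrg1 changed by -2.07.

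Cytoskeletal genes of the growing and the mature axon held more rises than falls. Of 45 growth cone and immature neuron genes 44 were tested, and 24 rose, 1 fell and 19 were not called (median 0.85). Averaging the E18 arrays gave 17 rises, and the hybridisation controls as a covariate gave 15. Tubulin and microtubule proteins rose in 16 of 24 (median 1.36), and growth cone membrane and actin proteins rose in 8 of 20, with 1 fall and 11 not called (median 0.38). Gap43, the growth cone phosphoprotein, read 10.76 and 10.75 at E18 and 12.73 and 12.94 at P6 and rose by 2.08 (SE 0.18, limma adjusted p = 0.00017). Tubb3, the neuronal beta tubulin, and Stmn4, a stathmin that destabilises microtubules, changed by 2.11 and 2.26, and Tuba4a, an alpha tubulin of mature neurons, read 8.02 and 8.14 at E18 and 11.77 and 12.56 at P6. Of 20 intermediate filament and mature axon genes 19 were tested, and 13 rose and 0 fell (median 1.33). Cntn1, an axonal adhesion molecule of the immunoglobulin family, read 9.46 and 9.58 at E18 and 13.14 and 13.03 at P6 and rose by 3.56 (SE 0.21, limma adjusted p = 3.36e-05). Among 32 transport motor genes 30 were tested, and 8 rose, 2 fell and 20 were not called (median 0.33). The share called was near the 31.7% called among all genes tested, of which 14.8% rose. In this list 5 rose with the E18 arrays averaged and 3 with the hybridisation controls as a covariate. The list held Kif5a, a kinesin of axonal transport, at 2.96 and Nde1, a dynein partner needed in dividing progenitors, at -4.30.

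Axon guidance families held both rises and falls. Eph receptors and ephrins, 18 of 20 tested, had 7 rises and 7 falls, and 3 of each with the E18 arrays averaged. The ephrin ligands Efna3 and Efna5 changed by 2.85 and 1.79 and the ligand Efnb1 by -1.99, while the receptor Epha3 read 10.08 and 10.11 at E18 and 7.53 and 7.69 at P6 and fell by 2.48 (SE 0.34, limma adjusted p = 0.00147). Semaphorins, plexins and neuropilins, 28 of 29 tested, had 9 rises and 5 falls; with the E18 arrays averaged there were 5 rises and 1 fall, and with the hybridisation controls as a covariate 9 and 1, so most of those falls were not kept. Sema4f and Sema3e, semaphorin ligands, changed by 3.01 and 2.63, and 7 of 17 ligands and 2 of 11 receptors rose. Slit, Robo, netrin and Unc5 genes, 20 of 22 tested, had 5 rises and 6 falls, and 3 rises and 4 falls with the E18 arrays averaged. Within the Slit ligands, which repel axons, Slit1 read 7.99 and 7.97 at E18 and 10.55 and 10.07 at P6 and rose by 2.33 (SE 0.32, limma adjusted p = 0.00155), whereas Slit2 read 9.44 and 9.49 at E18 and 7.0 and 6.29 at P6 and fell by 2.82 (SE 0.26, limma adjusted p = 0.000238). Both P6 arrays were above both E18 arrays for Slit1 and below both for Slit2, which holds in 1 direction or the other for every called gene.

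Adhesion molecules rose more often than they fell. Of 47 genes 42 were tested, and 19 rose, 3 fell and 20 were not called (median 0.82). Immunoglobulin adhesion molecules rose in 14 of 22 with 0 falling, and cadherins and protocadherins rose in 5 of 20 and fell in 3. Averaging the E18 arrays gave 13 rises and 2 falls in the whole list. Cdh9, a classical cadherin, read 5.79 and 5.36 at E18 and 9.61 and 10.12 at P6 and rose by 4.29 (SE 0.43, limma adjusted p = 0.000349). Heparan and chondroitin sulfate genes, 28 of 34 tested, had 7 rises and 7 falls, and 5 and 4 with the E18 arrays averaged; Gpc4, a glypican of progenitors, and Ptprz1, a receptor phosphatase of radial glia, changed by -3.89 and -4.12, and Sulf2, which trims heparan sulfate, by 2.53.

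Transcription factors that respond to hormones and activity were also divided. Nuclear receptors, 24 of 30 tested, had 5 rises and 6 falls, with Esr1, the oestrogen receptor alpha, at 2.21 and Nr2f2, COUP-TFII, at -2.09. Immediate early genes, 26 of 31 tested, had 7 rises and 6 falls: Fos read 11.30 and 11.34 at E18 and 8.13 and 8.84 at P6 and fell by 2.84 (SE 0.32, limma adjusted p = 0.000585), Jun changed by -2.53, and Nr4a3 rose by 2.69 (SE 0.29). Of 13 Klf factors, regulators of axon growth capacity, 12 were tested, and 5 rose and 2 fell; with the E18 arrays averaged 2 rose and 1 fell. Klf9, induced by thyroid hormone, read 8.30 and 8.24 at E18 and 10.96 and 11.24 at P6 and was higher at P6 on 7 of 7 probe sets, with a change of 2.83 (SE 0.23, limma adjusted p = 0.000146), and Klf15 changed by -3.43. Zbtb20 fell by 3.64 (SE 0.28). Clock genes, all 20 tested, had 6 rises and 1 fall, in Bhlhe40. The share called was near the 31.7% of all genes tested, of which 14.8% rose. In the clock list 3 rose with the E18 arrays averaged and 2 with the hybridisation controls as a covariate.

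Respiratory and proteasome genes had few calls. Of 54 respiratory chain genes 50 were tested, and 2 rose (Ndufv3 and Cycs), 0 fell and 48 were not called, with a median of 0.09, and of 33 proteasome and chaperone genes 32 were tested, and 1 rose (Psmc2) and 31 were not called (median -0.24). These counts are below the 31.7% called among all genes, and none of the 3 rises was called with the E18 arrays averaged. Cytosolic ribosomal protein genes numbered 70, of which 30 had no probe set with 1 symbol. Of 39 tested 16 fell, 0 rose and 23 were not called (median -0.62). Most of these falls were not kept with the E18 arrays averaged, nor with the hybridisation controls as a covariate, where 1 fell. Rps9 read 12.80 and 12.94 at E18 and 10.98 and 11.34 at P6 and Rpl22 12.80 and 12.76 at E18 and 11.57 and 11.90 at P6. Translation factors, 28 of 32 tested, had 1 rise and 3 falls, and 1 of each with the E18 arrays averaged; the rise was Eef1a2, the elongation factor of neurons and muscle, which read 10.18 and 10.14 at E18 and 12.67 and 13.10 at P6 and rose by 2.72 (SE 0.27, limma adjusted p = 0.00032).

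Metabolic and growth lists differed in direction. Among them the cholesterol and the lysosome and autophagy lists had shares called below the 31.7% of all genes tested. Glycolysis and glucose uptake genes, 20 of 23 tested, had 5 rises and 5 falls, and 4 and 3 with the E18 arrays averaged. Eno2, neuronal enolase, read 7.28 and 7.32 at E18 and 10.86 and 11.11 at P6 and rose by 3.69 (SE 0.30, limma adjusted p = 0.000135). Slc2a1, the glucose transporter of endothelium and glia, fell by 2.38 (SE 0.21, limma adjusted p = 0.000205), and Aldoc, the aldolase of astrocytes, fell by 3.83. Cholesterol genes, 23 of 26 tested, had 4 rises and 2 falls, with Srebf1 at -2.69 and Mvd at 1.31; the 4 rises were not called with the E18 arrays averaged. Of 29 lysosome and autophagy genes tested of 33, 1 rose and 3 fell, and with the E18 arrays averaged 0 rose and 1 fell. Of 20 apoptosis genes tested of 26, 3 rose and 7 fell, and with the E18 arrays averaged 0 rose and 5 fell. The falls included Casp6 at -2.15 and Bcl2 at -1.79. Imprinted genes, 20 of 26 tested, had 5 rises and 5 falls; Mest, expressed from the paternal copy, read 11.62 and 11.58 at E18 and 7.15 and 7.54 at P6, and Meg3, a long noncoding RNA from the maternal copy, rose by 1.55 (SE 0.20, limma adjusted p = 0.00111) and was higher at P6 on 11 of 11 probe sets. RNA binding regulators, 35 of 40 tested, had 9 rises and 9 falls, and 7 and 2 with the E18 arrays averaged, with Celf4 and Rbfox1, splicing factors of neurons, at 2.75 and 1.85.

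**Figure D4:**
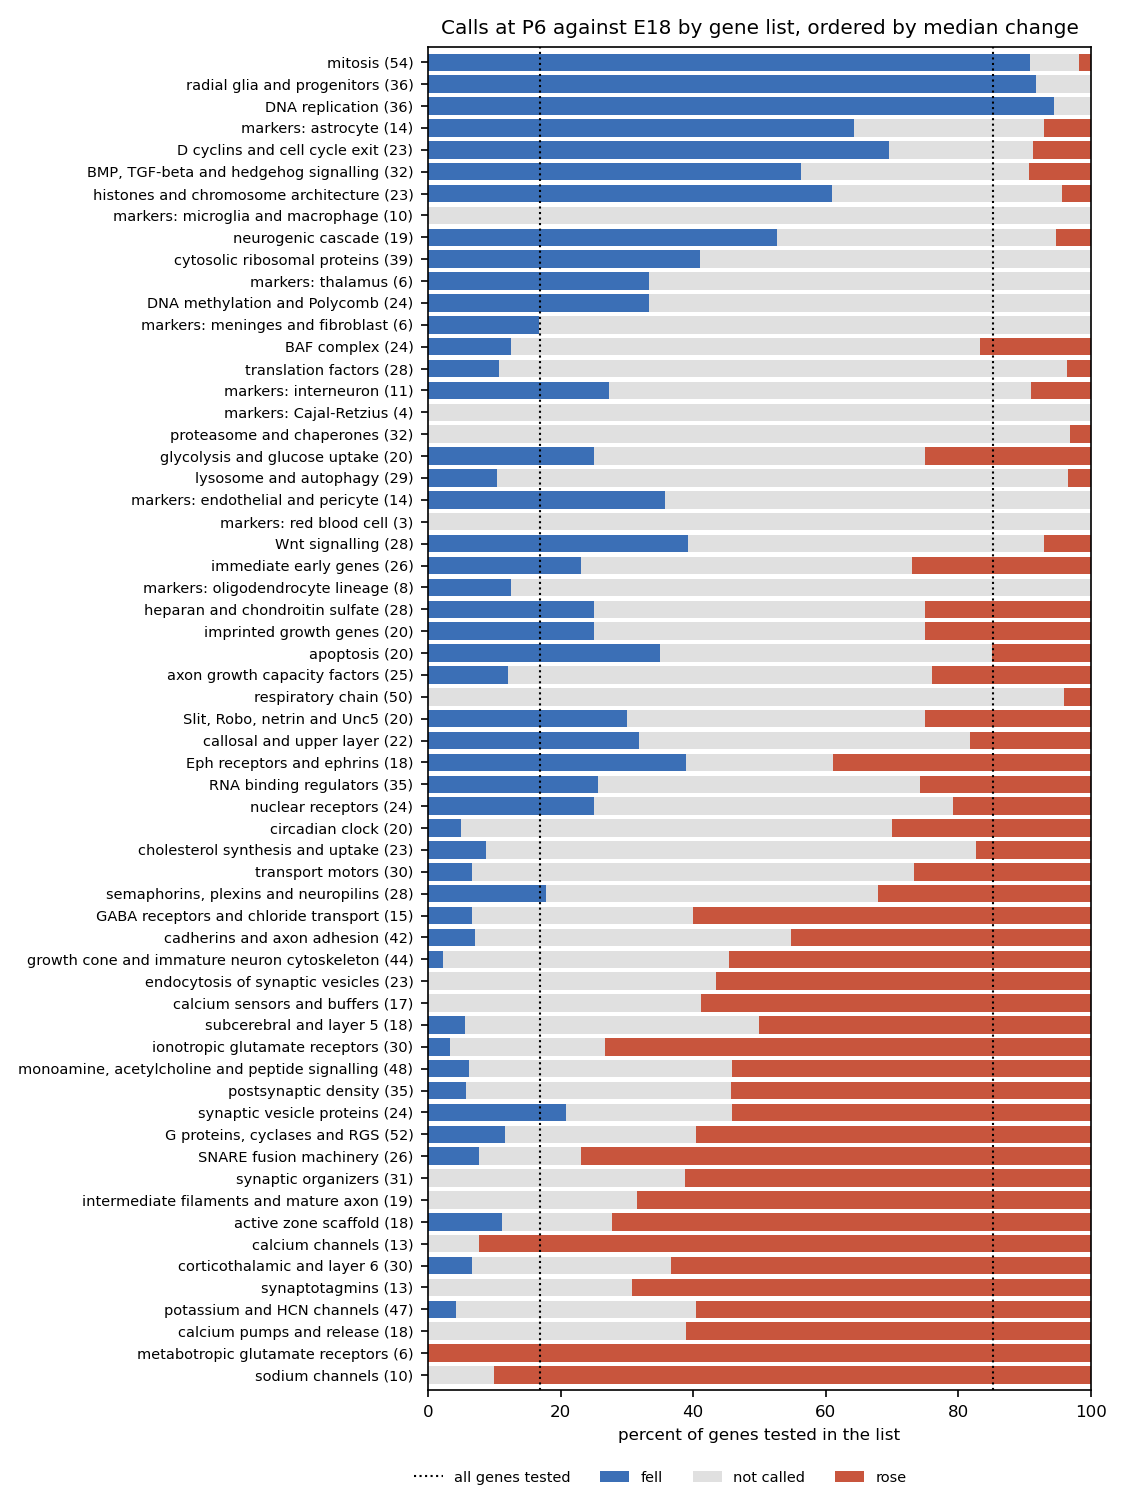
Percent of the genes tested in each list (number in parentheses) that fell (blue), were not called (grey) or rose (orange) from E18 to P6, with lists ordered by median change from lowest (top) to highest (bottom). Dotted lines mark 16.9% falling and 14.8% rising among all genes tested. Mitosis, radial glia and DNA replication lists are almost wholly blue, and channel, receptor and release lists are mostly orange.

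Related genes that are commonly contrasted between progenitors or young cells and mature neurons were compared as pairs. Of 40 pairs, 32 had both genes tested. In 9 the gene of the earlier state fell and that of the later state rose, in 1 the reverse held, in 4 both rose, in none both fell, and in 18 at least 1 was not called. The first group held Vim and Nefl, Actl6a and Actl6b, Sypl and Syp, Vamp3 and Vamp2, Hk2 and Hk1, Ss18 and Ss18l1, Slc17a6 and Slc17a7, Homer3 and Homer1, and Syngr2 and Syngr1. These counts depend on the fit. With the E18 arrays averaged 5 of the 9 pairs were called in opposite directions, 0 the reverse way and 2 with both rising; the pairs lost were those of Actl6b (limma adjusted p = 0.108), Ss18l1 (0.323), Vamp2 (0.0604) and Syngr2 (0.125). With the hybridisation controls as a covariate 3 of the 9 were kept, those of Vim, Hk2 and Homer3, while that of Ezh2 and Ezh1 was added. Vim, the intermediate filament of radial glia, read 13.51 and 13.52 at E18 and 8.16 and 8.18 at P6 and fell by 5.34 (SE 0.22, limma adjusted p = 1.28e-05), while Nefl, the light neurofilament of axons, read 8.92 and 9.05 at E18 and 11.54 and 11.52 at P6 and rose by 2.54 (SE 0.22, limma adjusted p = 0.000167).

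Subunits of the BAF complex are exchanged as neurons leave the cell cycle, and 5 such pairs were listed. Actl6a read 11.44 and 11.57 at E18 and 8.01 and 9.02 at P6 and its neuronal counterpart Actl6b 9.13 and 9.13 at E18 and 10.16 and 10.88 at P6, changes of -2.99 and 1.39, with Actl6b called in 13 of 18 alternatives. Ss18 changed by -2.12 and Ss18l1, also called CREST, by 0.81, the latter called in 8 of 18 alternatives. Of the other 3, Dpf2 and Dpf1 changed by -1.32 and 0.71, Phf10 and Dpf3 by -0.79 and 0.31, and Smarcd1 and Smarcd3 by 0.30 and 0.85, none called. The vesicular glutamate transporters Slc17a6, which prevails in thalamus, and Slc17a7, which prevails in cortex, read 9.10 and 9.18 at E18 and 6.26 and 7.91 at P6 and 5.99 and 6.02 at E18 and 7.34 and 8.65 at P6. In each of these transporters P6 replicate 2 was more than 1 above P6 replicate 1. The fall of Slc17a6 was not called without P6 replicate 1 (limma adjusted p = 0.109), nor the rise of Slc17a7 without P6 replicate 2 (limma adjusted p = 0.0695).

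Both alpha tubulins Tuba1a and Tuba4a rose, and so did the complexins Cplx2 and Cplx1, by 1.33 and 2.41, and the sodium channels Scn3a, Scn2a and Scn8a, the last by 2.01. The pair that went the reverse way was Smad1, which rose by 0.74 (SE 0.22, limma adjusted p = 0.0422), and Smad3, which fell by 1.87 (SE 0.23, limma adjusted p = 0.000862). The direction of Smad1 depended on its probe set: 2 of 3 were higher at P6, and the mean of the 3 changed by -0.19. Smad1 was called in 10 of 18 alternatives.

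**Figure D5:**
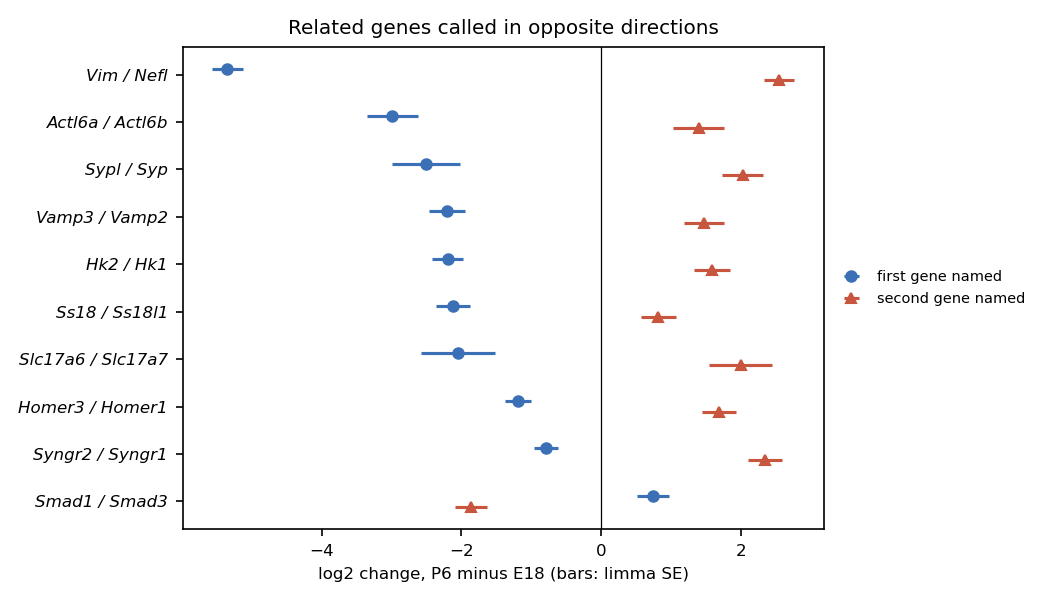
Change from E18 to P6 on the log2 scale (horizontal axis, bars are limma standard errors) for the 10 gene pairs called in opposite directions, with the first gene named in blue and the second in orange. The first gene lies below 0 and the second above 0 in every pair but Smad1 and Smad3.

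Markers of other cell types gave mixed calls. Aldh1l1, an astrocyte enzyme also present in radial glia, read 11.41 and 11.39 at E18 and 6.66 and 7.17 at P6 and fell by 4.49 (SE 0.24, limma adjusted p = 2.57e-05), while Gfap and Aqp4, markers of mature astrocytes, changed by 0.15 and 0.13 and were not called. Microglial genes tested gave 0 calls of 10, with C1qa reading 9.98 and 9.88 at E18 and 7.0 and 9.16 at P6, so P6 replicate 2 stood close to E18. In the interneuron list Dlx1 and Lhx6, factors of migrating interneurons, changed by -2.91 and -2.28, Npy rose by 1.19 (SE 0.26), and 7 of 11 were not called. The rise of Npy was lost with the E18 arrays averaged (limma adjusted p = 0.124). Of 14 endothelial and pericyte markers tested 5 fell, 0 rose and 9 were not called (median -0.15), with the pericyte markers Pdgfrb and Rgs5 at -2.05 and -2.11. Of 8 oligodendrocyte markers tested Olig2, also a gene of some progenitors, was the 1 called, at -3.25 (median -0.0026, highest 0.66). Of 6 thalamus markers tested 2 fell and 4 were not called (median -0.49, highest 0.37), with Zic1 at -4.65. The shares called in the interneuron, endothelial and pericyte, and thalamus lists were near the 31.7% called among all genes tested. Falls were 5 of 14 endothelial and pericyte, 3 of 11 interneuron and 2 of 6 thalamus markers, against 16.9% of all genes tested. The part of these cells in the other results was not tested.

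The P3 arrays place these changes in time, with the caution that P3 and P6 were compared with the same E18 arrays. The genes counted were also called on their P6 values, which favours P6 as the most extreme stage. Among the 2015 genes that rose by P6, the P6 mean was the highest of the 3 stages in 1639 and the P3 mean in 376. Among the 2305 that fell, the P6 mean was the lowest in 983 and the P3 mean in 1322. Rprml had a P3 mean of 8.86 against 10.44 at P6, Garnl3 9.54 against 11.27, and Slit1 8.52 against 10.31. Neurog2 had 5.44 at P3 and 4.88 at P6, and Cdk1 7.0 and 7.05. As limma called 0 genes between P3 and P6 (2696 at an unadjusted p below 0.05), these orders of means are descriptions.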

How the data were processed

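The deposited values are log2 levels of probe sets that the authors made with RMA, per the submitters' processing notes; the version and settings are not given in the sources used here, and depth has no counterpart on arrays, where the 2 arrays a stage limit precision. RMA corrects background and equalises array distributions, so a change is relative to the other genes on the array. Genes were named from the platform annotation (932 probe sets with several symbols and 9160 with none were left out). limma 3.58.1 in R 4.3.3 was fitted to all 6 arrays, giving 3 residual degrees of freedom, with an intensity trend and Benjamini-Hochberg adjustment over the 13645 genes tested. It was tested on simulated data first. The labels do not say that replicate numbers pair arrays, and the fit did not pair them. Deviations of same-numbered arrays correlated at 0.037 for E18 and P6, -0.20 for E18 and P3 and -0.14 for P3 and P6. With E18 arrays so alike, these values cannot show whether arrays were paired.

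The genes and the gene lists were chosen with earlier results of these data known. Named genes were the 12 largest rises and falls, the 4 best-ranked members by p of every list, 11 fixed corticothalamic genes and members of pairs called in opposite directions; exceptions within a list and genes in the other observations were named after their values were seen. Alternatives changed the filter, normalization, probe set choice, arrays, weights, covariates and block. Promoter sequences come from RefSeq on GRCm38.p6, and no protein sequence was used here.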

Additional observations from a re-analysis of the deposited data

How the results depend on the processing

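The 4320 calls (2015 rises, 2305 falls) became 2366 (1016 and 1350) with the E18 arrays averaged, 2485 (1203 and 1282) with the hybridisation control level as a covariate, and 6923 (3023 and 3900) with every probe set tested, where 26209 were tested. Leaving out 1 array gave 2338 to 6161 calls, 1014 to 2910 of them rises and 1324 to 3253 falls. Without E18 replicate 1 there were 2391 calls, without E18 replicate 2 there were 2338, and without P6 replicate 1 there were 3004, of which 1520 were falls. The remaining alternatives gave 3217 to 6455 calls, and the share of calls that rose ranged from 42.4% to 52.4% over all of them. With the replicate block 4054 genes were called, 1849 rising and 2205 falling. The labels do not say that the numbers pair the arrays.

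The 268 named genes include some that were not called. Most were chosen by smallest p or largest change, which favours keeping a call. Among them 22 lost their call with the E18 arrays averaged, 25 with the hybridisation controls as a covariate and 4 with the replicate block. A call was gained by 5 with the block. Of all 4320 called genes, 2366 were also called with the E18 arrays averaged and 2371 with the hybridisation controls as a covariate. The only reversal was Smad1, at -0.19 (limma adjusted p = 0.596) with the mean of all probe sets. Dim signal at P6 limits the size of the largest falls. The design does not separate stage from the interval between injection and collection.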

Other observations

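The P6 arrays differed by more than 2-fold in 220 of the 4320 called genes, and P6 replicate 2 was the higher array in 191 of them. Several are glial or stress-related: Mt3, a metallothionein, read 6.14 on P6 replicate 1 and 8.87 on replicate 2, and Gja1, the astrocyte gap junction protein, read 6.69 and 9.17, against E18 levels of 11.64 and 11.69 for Mt3 and 10.97 and 11.22 for Gja1. Notch2, a receptor of progenitors and glia, read 5.70 and 8.20, and Apoe, a lipid carrier of glia, 8.77 and 10.46. All 4 were called, with changes of -4.16 for Mt3, -3.17 for Gja1, -4.33 for Notch2 and -2.17 for Apoe. Genes that rose could be as far apart, such as Fap, a serine protease, at 6.60 and 9.28, and Dmrt2, a transcription factor, at 7.53 and 9.64. In the opposite direction Gsg1l, an AMPA receptor auxiliary subunit, read 10.23 on replicate 1 and 8.63 on replicate 2. These genes were named after their values were seen, and no cause was tested.

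Of 2054 called genes that had several probe sets above the filter, 1678, or 81.7%, had all of them moving in 1 direction.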
